A study of Drosophila melanogaster with 12 samples.

Results

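The genes described are Pdp1, slmb and Rh7, 3 genes of the circadian system, of 6793 genes that carry a name on the arrays. They were taken by symbol, and were chosen by their measured values, because their ratios 3 days after withdrawal from pentylenetetrazol (PTZ) were low, so the values of that day are given as a description with no test. PTZ causes seizures by blocking the GABA-A receptor. Male Drosophila melanogaster of the Oregon-R wild-type stock, unmated and 4 to 5 days old by the labels, fed for 7 days on medium with 8 mg/ml PTZ and then returned to normal food. Untreated males were kept on normal food throughout and moved to fresh normal food on the same schedule. Counted from the first day on PTZ, heads were taken on days 8, 10 and 14, which is 1, 3 and 7 days after withdrawal. For each day there were 4 arrays of 2 colours spotted with cDNA, on which pooled heads of withdrawn males were hybridised together with pooled heads of untreated males. The labels give no hour of the day at which the heads were frozen, although the flies lived in a cycle of light and dark.

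In the fly clock the transcription factors CLK and CYC switch on per, tim, vri and Pdp1, and the PER and TIM proteins later return to the nucleus and stop CLK. Pdp1 encodes a bZIP activator that drives Clk, opposite to the repressor encoded by vri, and it is also known as an activator of muscle genes. Slmb is the F-box subunit of an SCF ubiquitin ligase that recognises phosphorylated PER and sends it to the proteasome, and it also acts in Hedgehog and Wingless signalling. Rh7 is an opsin, the light-absorbing protein of a photoreceptor, and it has been described in clock neurons of the brain, where it contributes to setting the clock by light.

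Values are deposited log2 ratios, 1 for each spot, with the base of 2 assumed. They are read as withdrawn over untreated. The channel labels give this direction, which is open to doubt because the series text has the dyes swapped on 2 of 4 arrays of each day while the channel labels name 1 orientation for all of them. Each array was centred on its own median, and a ratio below 0 means lower than the median of that array. In pooled whole heads, fewer cells of a type and less RNA per cell cannot be told apart. The day 8 columns were identical at all spots that any pair of them shared, for example at 4790 of 4790 spots for replicates 1 and 2, and count as 1 sample. Arrays of days 10 and 14 held 4310 to 19807 values and day 8 columns 2316 to 7454. Among day 10 arrays, replicate 1 correlated with replicate 2 at an r of 0.50 across genes and replicate 3 with replicate 4 at 0.55, while the remaining combinations gave -0.07 to 0.03. The 4 arrays of day 10 therefore formed 2 sets, while every SD and limma p-value of that day treats them as 4 independent samples. The limma fit shares 1 spread per gene between the days. The limma SEs, intervals and p-values of day 14 thus also draw on the day 10 spread. With so few arrays each mean has limited precision.

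The 3 genes were measured on 8 of 27648 spots. Pdp1 had the pair 25561 and 25562, Rh7 the pair 1941 and 1942, and slmb the pairs 15589 and 15590 and 23623 and 23624. The labels do not say which transcripts of Pdp1 the spotted clone detects. Pdp1 and slmb had a value on all 8 arrays of days 10 and 14, and Rh7 had one on all 4 arrays of day 10 but on 1 array of day 14 and in no column of day 8.

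Pdp1, the activator arm of the second clock loop, stood below the array median on all 4 arrays of day 10, and on 1 of them only barely. Its log2 ratio was -0.30 in replicate 1, -0.01 in replicate 2, -0.32 in replicate 3 and -0.78 in replicate 4. Replicate 4 had the lowest value and replicate 2 lay at the array median. The mean was -0.35 ± 0.32 (SD, n = 4), a ratio of 0.784, and it was -0.21 without replicate 4. Among all genes of its array Pdp1 ranked at the percentile 1.39 in replicate 4 and at 49.1 in replicate 2. The spread was wide, with 79.4% of the 3317 genes measured on all 4 arrays having a smaller SD.

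At day 14 Pdp1 stood at -0.13 in replicate 1, 0.08 in replicate 2, -0.05 in replicate 3 and -0.12 in replicate 4. These values lie on both sides of the array median, and the lowest of them is above 3 of the 4 day 10 values. The mean of -0.05 ± 0.09 (SD, n = 4) did not pass (limma SE 0.12, adjusted p = 0.966, 95% interval -0.32 to 0.21). By an exact two-sided sign-flip permutation test over the 4 arrays p was 0.375, where 0.125 is the smallest that 4 arrays allow. At day 8 only the columns of replicates 1 and 2 held Pdp1, and the single sample read -0.39.

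slmb, which encodes the PER-targeting subunit of the ligase, was also below the array median on every day 10 array. The ratio was -0.49 in replicate 1, -0.16 in replicate 2, -0.55 in replicate 3 and -0.41 in replicate 4. Replicate 2 was again the nearest to 0. The mean was -0.40 ± 0.17 (SD, n = 4), a ratio of 0.756, with percentiles among the genes of an array from 1.61 in replicate 3 to 27.3 in replicate 2.

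At day 14 the slmb values were 0.13 in replicate 1, 0.02 in replicate 2, -0.11 in replicate 3 and -0.19 in replicate 4. They straddled 0, and the lowest of them fell below the highest day 10 value, so the days overlap in 1 array each. The mean was -0.04 ± 0.14 (SD, n = 4) and did not pass (limma SE 0.10, adjusted p = 0.975, 95% interval -0.26 to 0.18; exact two-sided sign-flip permutation p = 0.75). At day 8 slmb had a value only in the column of replicate 1, where it stood at 0.28, at the percentile 88.0 of that column. The day 8 value thus lay on the other side of the array median from all 4 day 10 arrays, a difference that was not tested.

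Rh7, the opsin, had the most even ratios of the 3. It stood at -0.31 in replicate 1, -0.25 in replicate 2, -0.36 in replicate 3 and -0.32 in replicate 4 of day 10. No array departed from the rest, and the mean was -0.31 ± 0.05 (SD, n = 4), a ratio of 0.806. Of the 3317 genes on all 4 arrays, 0.995% had a smaller SD than Rh7, and the median SD was 0.21. The only later value, on replicate 4 of day 14, was -0.002, at the percentile 52.3, and Rh7 was not tested at that day, since a test needed values on at least 3 arrays.

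**Figure D1:**
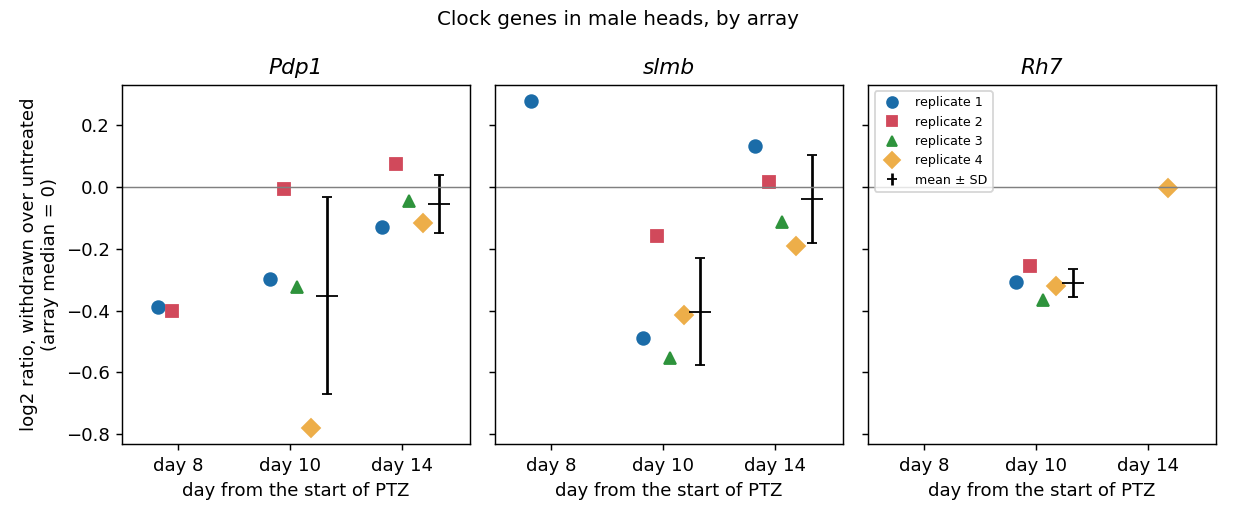
Log2 ratio of Pdp1, slmb and Rh7 on each array (y axis, withdrawn over untreated, array median at 0) by day (x axis), with symbols for the replicates and the mean ± SD beside days 10 and 14; the day 8 points are 1 sample. All 12 day 10 points lie below 0, the highest being Pdp1 in replicate 2 at -0.01, while the day 14 points lie between -0.19 and 0.13.

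Read side by side, the day 10 means of the 3 genes spanned less than the SD of Pdp1 or of slmb: slmb at -0.40 ± 0.17, Pdp1 at -0.35 ± 0.32 and Rh7 at -0.31 ± 0.05 (SD, n = 4 each). Every one of them lay below the array median on all 4 arrays, a property used to choose them and read no further. Of the 4661 genes tested at that day, 13.1% lay below the array median on every array with a value, which could be 3 or 4 arrays. Between the 2 sets of day 10 arrays, the mean of replicates 1 and 2 against that of 3 and 4 was -0.15 against -0.55 for Pdp1, -0.32 against -0.48 for slmb and -0.28 against -0.34 for Rh7. At day 14, 0 of the 2 members with enough values passed an adjusted p of 0.05 in limma and 0 had an unadjusted p under 0.05, where 0% of 3010 genes were called and 6.64% had an unadjusted p under 0.05. The difference of day 14 minus day 10 was 0.30 (SE 0.17) for Pdp1, 0.37 (SE 0.14) for slmb and 0.31 (SE 0.22) for Rh7, the last with 1 array at day 14. In limma the SE of Rh7 combines its day 10 spread with the spread over all genes, and it is wide beside its day 10 SD of 0.05. These differences hold the day 10 values that chose the genes and are given without a test.

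The paired spots show how far the ratio of a single gene can be read. Adjacent spots of Pdp1 differed by a median of 0.18 over the arrays of days 10 and 14 and at most by 0.46, in replicate 2 of day 10, where one read 0.22 and the other -0.23. The near-zero mean of Pdp1 on that array is therefore the average of spots on either side of 0. The Rh7 spots differed by 0.48 on the same array, at -0.49 and -0.02, and by 0.03 to 0.21 on the other day 10 arrays. On 3 of 4 arrays the spots of Rh7 thus lay further apart than its highest and lowest array means. Among the slmb spots, the pair 23623 and 23624 differed by a median of 0.14, and the pair 15589 and 15590 by 0.30.

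For slmb, whose 2 pairs sit far apart in the order of spots, the pairs could be set against each other. In replicate 1 of day 10 they read -0.61 (15589 and 15590) and -0.37 (23623 and 23624). In replicate 4 they read -0.07 and -0.76, a gap larger than the mean itself. In both of these replicates the pair means were below 0, with different sizes. The spots 15589 and 15590 in replicate 4 read 0.04 and -0.185, on either side of 0. The slmb mean of replicate 4 is thus the average of a pair near 0 and a pair far below it. At day 14 the pairs read 0.01 and 0.25 in replicate 1, 0.18 and -0.14 in replicate 2 and -0.09 and -0.14 in replicate 3.

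Ratios also differed between stretches of neighbouring spot numbers, and at day 10 Pdp1 lay in a low stretch. The 27648 spots were divided into 192 equal runs of consecutive numbers, and the median of the other spots in a run was taken on each array. In the run that holds Pdp1, 52 to 102 other spots had a value on the day 10 arrays and 8 to 122 on the day 14 arrays. That run had medians of -0.43, -0.28, -0.40 and -0.35 in replicates 1, 2, 3 and 4 of day 10. It was the lowest of all 192 runs at that day, and 19 of the 20 other genes tested in it had a mean below 0, against 46.9% of all 4661 genes tested. Pdp1 lay above its neighbours on 3 of 4 arrays and below them in replicate 4. With the run medians set to 0, its day 10 values were 0.13, 0.27, 0.08 and -0.42, a mean of 0.02 ± 0.30 (SD, n = 4). Longer runs, chosen after seeing the data, left it at -0.11. At day 8 the run medians were -0.88 and -0.70 in the 2 columns that held Pdp1, from 16 and 20 other spots, and the Pdp1 value then became 0.28.

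Rh7 did not lie in a low run, and slmb did so for 1 of its 2 pairs. The neighbours of Rh7 had medians of 0.02, -0.01, 0.23 and 0.29 at day 10, so the gene stood lower than them on every array. Relative to its run Rh7 read -0.32, -0.24, -0.58 and -0.60, a mean of -0.44 ± 0.18 (SD, n = 4). For slmb the run around 15589 had medians between -0.03 and 0.05 at day 10. The run around 23623 had -0.17, -0.04, -0.05 and -0.35, with 21 of 24 other genes below 0, and ranked 22 from the lowest of the 192 runs. In replicates 2 and 3 slmb rests on the pair in that run alone. Relative to both runs slmb read -0.38, -0.12, -0.50 and -0.26, a mean of -0.31 ± 0.17 (SD, n = 4), nearer 0 than the -0.40 relative to the array median. Of the 3 genes, slmb and Rh7 lay below their neighbours on all 4 arrays of day 10, and Pdp1 did so only in replicate 4. As the genes were chosen for low values at that day, this is given as a description only.

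**Figure D2:**
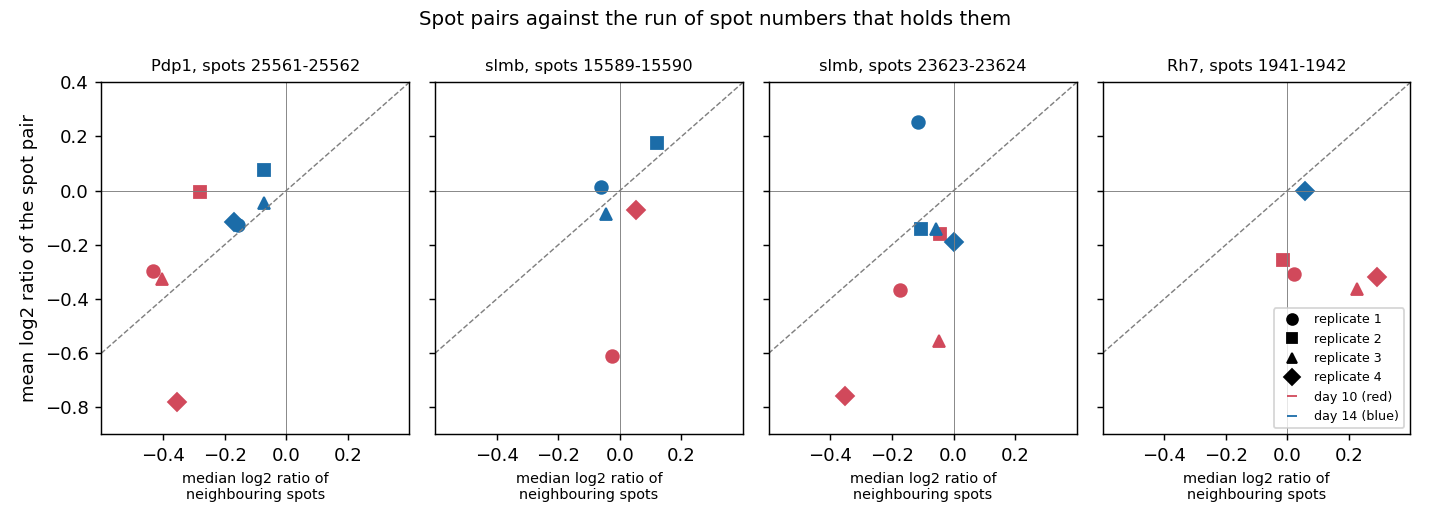
Mean log2 ratio of each spot pair (y axis) against the median of the other spots in its run of spot numbers (x axis) on the arrays of day 10 (red) and day 14 (blue), with a dashed line where they are equal and symbols for the replicates. Day 10 points of Pdp1 lie around the line at run medians of -0.43 to -0.28, and those of Rh7 lie below it at run medians of -0.01 to 0.29.

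Unless the authors had already turned the ratios of swapped arrays, the sign of the day 10 values depends on which arrays had swapped dyes. Whether they had done so was not tested. The labelling text of replicates 1, 2 and 3 of that day names Cy3 for the treated heads, against Cy5 in the channel labels. With these 3 arrays turned, the mean was -0.04 for Pdp1, 0.20 for slmb and 0.15 for Rh7. If instead 2 of 4 arrays were swapped, as in the series text, Rh7 had a mean of -0.03, 0.02 or 0.002 for the 3 ways of pairing the arrays, that of slmb -0.08, 0.12 or 0.05, and that of Pdp1 -0.20, -0.04 or 0.19. Of the settings given here, a common sign on all 4 arrays therefore holds only under the channel labels. Turning replicates 1 and 2 leaves the day 10 correlations of 0.50 (replicates 1 and 2) and 0.55 (replicates 3 and 4) as they are. Turning replicates 3 and 4 instead does so too, and reverses the signs of the 3 means. Every other turn given here makes at least 1 of these correlations negative. Which arrays were swapped was not tested. As the swapped arrays are not identified in the labels, the direction of these 3 genes cannot be settled here.

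**Figure D3:**
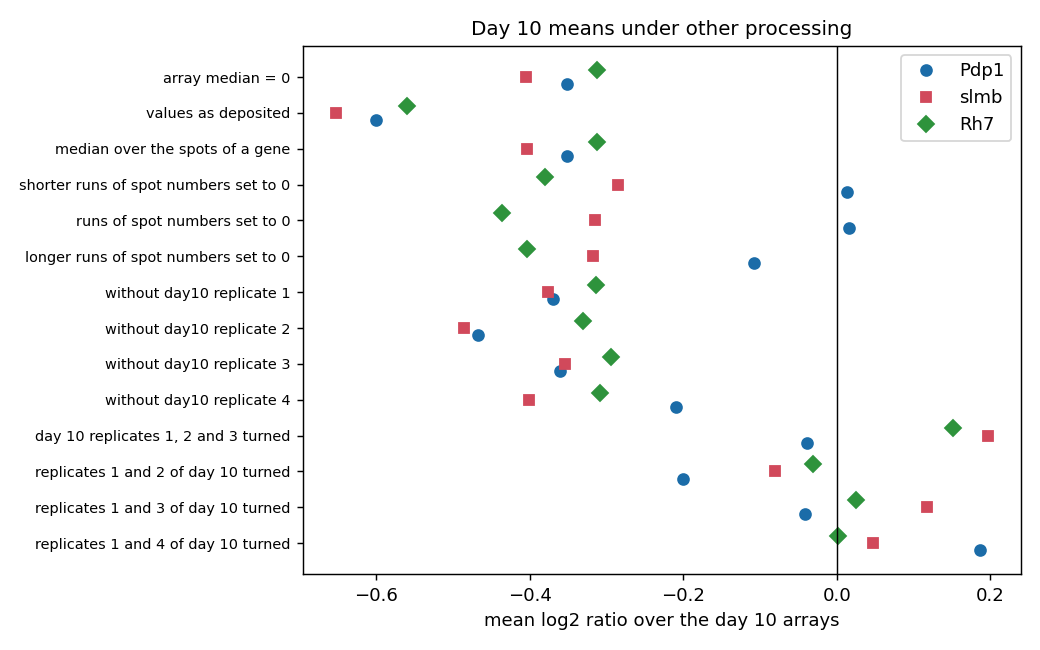
Mean log2 ratio of each gene over the day 10 arrays (x axis) under the processing named on the y axis, with 1 point for each gene and setting. Pdp1 moves to about 0 when runs are centred (0.02, or 0.01 with shorter runs) and to -0.11 with longer runs, slmb and Rh7 stay below 0 there, and turning the signs of arrays moves slmb to between -0.08 and 0.20 and Rh7 to between -0.03 and 0.15.

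The other genes of the clock gave no common direction. Of a list of 51 clock genes without the 3 members, 22 were named on the arrays and 16 had enough values at day 10. Of these 6 lay below and 10 above the array median, with a median of 0.03 against 0.01 over all genes tested. None passed an adjusted p of 0.05 in limma, as 0% of all genes did, and 3 had an unadjusted p under 0.05, against 13.2% of all genes. At day 14, 12 were tested, 5 below and 7 above 0, with a median of 0.03, none passed and 1 had an unadjusted p under 0.05, against 6.64% of all genes.

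In the feedback loop itself, per stood at -0.06 ± 0.06 (SD, n = 4) at day 10 and 0.10 ± 0.32 (n = 3) at day 14. Its day 10 values, from -0.11 to 0.02, lay close to the array median. Clk, the gene that PDP1 activates, stood at 0.06 ± 0.34 (n = 3) at day 10, with values of 0.36, -0.31 and 0.13 that lie on both sides of 0. For tim the 3 values were 0.55 in replicate 3 of day 10, and 0.49 and -1.05 in replicates 1 and 3 of day 14, too few for a test. The genes cyc, vri and cwo were not analysed here.

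Among genes that act on PER and TIM, dco, the PER kinase also called doubletime, stood at 0.12 ± 0.41 (n = 3) at day 10. The ubiquitin ligase genes did not go one way. Cul1, the scaffold of the SCF complex that holds Slmb, stood at 0.18 ± 0.17 (n = 3) at day 10, with all of its values above 0 while all slmb values were below. Cul3, another cullin implicated in TIM turnover, stood at 0.31 ± 0.30 (n = 4, unadjusted p = 0.0343). ctrip, a ubiquitin ligase that acts on CLK and PER, had the lowest mean of the 16 tested at -0.36 ± 0.21 (n = 3, unadjusted p = 0.0153). jet, the F-box protein that marks TIM in light, stood at -0.15 ± 0.16 (n = 4) at day 10 and -0.09 ± 0.09 (n = 3) at day 14. None of these genes passed after adjustment over all genes in limma. These places in the order hold only for the signs of the channel labels: with replicates 1 and 4 turned, ctrip stood at 0.16 and Cul3 at -0.05. The list of genes tied to Slmb activity had 2 members on the arrays. dl, the NF-kB factor held back by Cactus, stood at 0.01 ± 0.22 (n = 3) at day 10 and at 2.04 in the single sample of day 8, where it had too few columns for a test. SAK, a kinase that Slmb marks for degradation, stood at -0.08 ± 0.14 (n = 4) at day 14.

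Of the light input genes, cry, the blue-light receptor of clock neurons, stood at 0.07 ± 0.18 (n = 4) at day 10, and its values ran from -0.16 to 0.29. Galphaq, the G protein subunit behind the visual opsins, stood at -0.11 ± 0.08 (n = 3) at day 10 and 0.04 ± 0.22 (n = 4) at day 14. The other opsin genes were not analysed here. Photoreceptor markers had a median of 0.14 at day 10, with 4 of 6 tested above 0 and array medians from 0.0002 to 0.20, while Rh7 lay below 0 on all 4 arrays. At day 14 the marker median was 0.13, with 5 of 5 above 0. Glial markers had 3 of 4 tested below 0 at day 10 (median -0.13), with array medians from -0.58 in replicate 1 to -0.03 in replicate 4, and the 2 neuronal markers tested lay above 0. Fat body markers had 7 of 8 tested above 0 at day 10 (median 0.37), with array medians from -0.05 in replicate 2 to 0.61 in replicate 4, and 2 of 6 above 0 at day 14 (median -0.14). The highest of these day 10 means, that of the yolk protein gene Yp1, was 0.62 ± 1.16 (SD, n = 3). Its values were 0.09, -0.17 and 1.95 in replicates 1, 3 and 4. The 2 testis markers tested at day 10, which heads should lack, stood at 1.10 (S-Lap8) and 0.62 (twe), and none had enough values at day 14. Head muscle markers had 2 of 3 above 0 at day 10 (median 0.06) and 3 of 3 at day 14 (median 0.12). Over all genes tested, 46.9% lay below 0 at day 10 and 47.8% at day 14. The marker directions were read with the signs of the channel labels, which are not settled. No marker gene passed after adjustment in limma, and their part in the ratios of the 3 genes was not tested.

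Output genes included the lowest mean among the 12 list genes tested at day 14. lark, an RNA-binding protein that controls the rhythm of adult emergence, stood at -0.26 ± 0.19 (n = 4, unadjusted p = 0.0491) at day 10 and -0.41 ± 0.27 (n = 3, unadjusted p = 0.0117) at day 14. With the signs of the channel labels it lay below 0 on all 7 arrays that measured it. At day 10 alone, 13.1% of all genes tested lay below 0 on every array with a value. lark did not pass after adjustment in limma (adjusted p = 0.375 at day 10 and 0.638 at day 14). With 2 of the 4 arrays of day 14 turned, lark stood at 0.34, 0.02 or -0.05 for the 3 ways of pairing them, and Pdf at -0.17, -0.06 or 0.19. ITP, an ion transport peptide of some clock neurons, stood at -0.16 ± 0.17 (n = 4) and -0.21 ± 0.08 (n = 3). Pdf, the main neuropeptide of clock neurons, stood at 0.02 ± 0.22 (n = 4) at day 10 and 0.24 ± 0.31 (n = 4) at day 14, the highest mean among the 12 list genes tested at that day. Its receptor gene Pdfr stood at 0.01 ± 0.12 (n = 4) at day 10. Nf1, which carries clock output, stood at 0.21 ± 0.41 (n = 4) and 0.14 ± 0.19 (n = 3), and Slob, which binds a potassium channel, at 0.12 ± 0.05 (n = 4) and 0.14 ± 0.10 (n = 3).

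**Figure D4:**
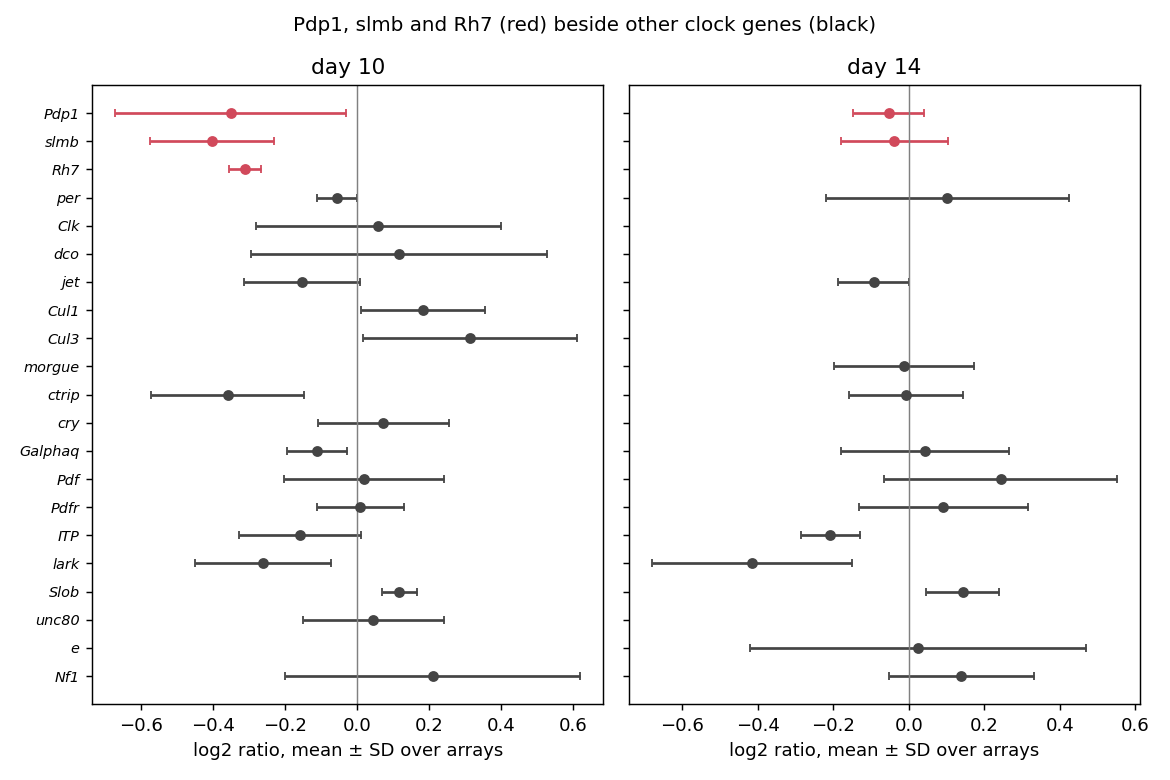
Mean log2 ratio with SD over arrays (x axis) at day 10 (left) and day 14 (right) for Pdp1, slmb and Rh7 (red) and for the other clock genes with at least 3 values on a day (black). At day 10 ctrip at -0.36 lies among the 3 members, and Cul3 at 0.31 is the highest, both with the signs of the channel labels.

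Genes known as targets of Pdp1 in muscle, and other bZIP genes, had 3 members tested at each day. Tm2, a tropomyosin gene, stood at 0.10 ± 0.10 (n = 4) at day 10 and 0.12 ± 0.30 (n = 3) at day 14. The bZIP gene kay, the fly Fos, stood at -0.34 ± 0.13 (n = 4) at day 10 and -0.09 ± 0.13 (n = 4) at day 14, and crc, the fly ATF4, at 0.29 ± 0.13 and 0.14 ± 0.33 (n = 4 each). None passed in limma after adjustment. Their unadjusted p at day 10 was 0.00411 for kay and 0.0379 for crc, on opposite sides of 0.

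The ratios of each gene over the 8 arrays of days 10 and 14 were set against those of the 603 other genes measured on all 8. The genes most like Pdp1 were nudE, a dynein regulator, at a Pearson r of 0.973, sky, a Rab regulator of synaptic vesicles, at 0.972, the translation initiation gene eIF2Bbeta at 0.941, Sh3beta at 0.908 and CG14591 at 0.899. Day 10 means ran from -0.42 for nudE to -0.10 for CG14591, and none of the 5 lies in the run of spots that holds Pdp1. The first spots of nudE (10963) and sky (10987) lie close to each other in number, and the part of position in these r was not tested. Most like slmb were CG42674 at 0.936, the dosage compensation gene Clamp at 0.888, the calsyntenin gene Cals at 0.856, SKIP at 0.855 and the anion exchanger gene Ae2 at 0.851. Each of these 5 was lower at day 10 than at day 14, as slmb was. The values share arrays and the day difference, and r is given as a description. Rh7, with 5 arrays, was not set against other genes.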

How the data were processed

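Per the labels and the series text, the authors labelled RNA of pooled heads with Cy3 and Cy5, quantified scans with GenePix Pro 6.0, normalized by ratio in Acuity 4.0, filtered spots and used SAM 2.21. The deposited values are log2 ratios per spot, with the base assumed. Intensities were not analysed here, so depth per spot is unknown. Spots with 1 gene name (15116 of 27648) were averaged per gene and array after each column median was set to 0, with symbols updated through RefSeq gene numbers. No genome sequence was used, so no sequences or positions are shown.

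A fit of 9 samples (4, 4 and 1) with a mean per day was made over 5291 genes in limma 3.58.1 (R 4.3.3). Tests needed values in at least 3 of the 4 columns of a day, and p-values were Benjamini-Hochberg adjusted over all genes tested. The day 14 test was also run on simulated data with independent arrays, which does not cover the correlated arrays of day 10. Labels describe the 4 arrays of days 10 and 14 as biological replicates. The members and lists were chosen with earlier results of these data known. Named are the 3 members, the 3 highest and 3 lowest tested clock genes of days 10 and 14, loop, SCF and light receptor genes with values, list genes of slmb and Pdp1, and the 5 genes most like a member. Replicate numbers were not taken to pair the arrays of days 10 and 14.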

Additional observations from a re-analysis of the deposited data

Results flagged for a closer look

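slmb stood at 0.28 in the 1 sample of day 8, while all 4 arrays of day 10 lay below 0, at -0.55 to -0.16. The days lie on opposite sides of the array median, and the difference was not tested. The day 8 value rests on 4 spots in 1 of the 4 identical columns, which read 0.15 to 0.41.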

How the results depend on the processing

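At day 14 Pdp1 and slmb passed in limma only without centring, a setting that called 3001 of 3010 genes, every one higher, at a median of 1.17. There Pdp1 read 1.02 (adjusted p = 5.68e-05), slmb 1.03 (adjusted p = 4.72e-05) and Rh7 0.556. Day 10 then gave -0.65 for slmb and -0.56 for Rh7, and day 14 minus day 10 gave 1.62 for Pdp1, 1.68 for slmb and 1.12 for Rh7, with 2352 genes called for the difference against 0. The other clock genes had medians of -0.22 at day 10 and 1.19 at day 14. These values keep the offset of each column.

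With run medians set to 0, Pdp1 read 0.28 at day 8, 0.016 at day 10, 0.058 at day 14 and 0.043 for the difference, Rh7 -0.44 at day 10, and the other clock genes 0.064 at day 10. Shorter runs, chosen after seeing the data, gave 0.21, 0.013, 0.073 and 0.06 for Pdp1, 0.024 for slmb at day 14, -0.38 for Rh7 and 0.088 for the other clock genes. Longer runs, also chosen after seeing the data, gave Pdp1 -0.12 at day 8, -0.11 at day 10, 0.018 at day 14 and 0.13 for the difference, Rh7 -0.40 and the other clock genes 0.061. The cause was not tested.

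Turning signs moved values by construction. With replicates 1, 2 and 3 of day 10 turned, slmb read 0.20 and Rh7 0.15, and the differences were -0.015 for Pdp1, -0.24 for slmb and -0.15 for Rh7. Turning replicates 1 and 2 gave slmb -0.080 and Rh7 -0.031, with differences of 0.042 and 0.029. Turning replicates 1 and 3 gave slmb 0.12 and Rh7 0.0245, with differences of -0.012 for Pdp1, -0.16 for slmb and -0.0265 for Rh7. Turning replicates 1 and 4 gave Pdp1 0.19, slmb 0.048 and Rh7 0.002, differences of -0.24, -0.086 and -0.004, and 0.0038 for the other clock genes. At day 14, Pdp1 read 0.034 with replicates 1 and 3 turned and 0.069 with replicates 1 and 4 turned, where Rh7 read 0.002. The lower-numbered pair of slmb spots alone, chosen after seeing the data, gave 0.035 at day 14.

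At day 8, where 1 sample borrows its spread from the other days, limma called 19 genes, against 8 without centring, 6 with values required in all 4 columns, 29 with at least 2 and 4 with the day 8 spread raised 1.99-fold. At day 10 it called 3 with values on all 4 arrays, against 0. Leaving out 1 array at a time, where a value on all 3 arrays left was required, it called 2 to 23 genes at day 8, 0 to 5 at day 10 (the most without replicate 1) and 0 at day 14. The Pdp1 mean ran from -0.47 to -0.21 at day 10, the latter without replicate 4, and its difference from 0.16 to 0.41. The slmb mean ran from -0.095 to 0.012 at day 14, the latter without replicate 4, and the other clock genes from -0.024 to 0.072 at day 10 and -0.0024 to 0.10 at day 14. No value was possible for Rh7 at day 14 without replicate 4, for slmb at day 8 without replicate 1, or for day 8 fitted alone. Arrays of days 10 and 14 with the same number had deviations correlated at 0.017 to 0.342. Deviations of arrays with different numbers were not compared, so whether the numbers pair the arrays was not tested. The numbers were not taken to pair them. A replicate block gave a difference of 0.30 for Pdp1, 0.37 for slmb and 0.32 for Rh7, with 0 genes called.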
